A study of Arabidopsis thaliana with 6 samples.

Results

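Transcript levels of nuclear RNA polymerase subunit genes were compared between rosettes of an Arabidopsis thaliana double mutant and of wild-type plants. The genes were chosen by name: a probe set of the array had to name 1 gene only, and the gene's symbol in the array's annotation had to begin with NRPA, NRPB, NRPC, NRPD or NRPE and a number. This gave 12 genes, each with 1 probe set, among the 13513 probe sets of the array that name a single gene. RefSeq's table of Arabidopsis genes (TAIR10.1) holds 28 such symbols. NRPB3 and NRPE3B share a probe set and were left out. The other 14 symbols are not given to any probe set in the array's annotation, and those genes were not analysed here. Whether probe sets carry them under another name was not looked up. The double mutant is labelled at3g03940/at518190 -/- and is also called a knockdown by the submitters; the second locus lacks a digit there and was read as AT5G18190. The wild type was Columbia-0 (Col0). Rosette leaves of both genotypes were taken at 21 days from well-watered plants grown under 12 h of light, with 3 arrays per genotype. The labels name neither the alleles nor whether replicates were separate plants or pools. The p-values therefore rest on the spread among 3 RNA samples per genotype, and part of that spread may be technical. In limma's moderated test, used below, the spread of each gene is also combined with that of all probe sets tested (total degrees of freedom 10.6).

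Nuclear transcription in plants is shared among RNA polymerase I, which makes the large ribosomal RNA precursor, RNA polymerase II, which makes messenger RNA, RNA polymerase III, which makes 5S ribosomal RNA and transfer RNA, and the plant-specific RNA polymerases IV and V, which act in RNA-directed DNA methylation. The letters A to E in the gene names stand for these enzymes in that order. Each enzyme has a largest and a second-largest subunit that together form the active site, a stalk that holds the subunit numbered 7, and small subunits, several of which are common to more than 1 enzyme.

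On the arrays, MLK1 (AT5G18190), the targeted gene that could be followed, was at 3.45 ± 0.11 in the double mutant and 7.77 ± 0.15 in the wild type (SD, n = 3, log2 expression values), low where the label says mutant. Pearson correlations across probe sets were 0.997 to 0.998 within the double mutant, 0.993 to 0.996 within the wild type and 0.967 to 0.970 between genotypes, and no array stood apart from its group. Of the leaf genes listed as markers of the labelled tissue, 2 of 8 could be followed: the Rubisco activase gene RCA read 13.54 ± 0.03 in the double mutant and 12.94 ± 0.05 in the wild type, and the antenna gene LHCB4.3 read 7.76 ± 0.16 in the double mutant and 7.21 ± 0.12 in the wild type (SD, n = 3). PYK10, a beta-glucosidase known from roots and the only measured one of 5 root markers, was also bright, at 11.82 ± 0.03 in the double mutant and 11.31 ± 0.14 in the wild type (SD, n = 3). The meristem gene CLV3 lay below the lower quartile on all 6 arrays, and flower and seed storage markers were not analysed here. Control probe sets at both ends of actin, GAPDH and ubiquitin form 6 pairs, and in 3 of them the ratio of 5′ to 3′ signal was higher in all double mutant arrays than in any wild-type one. On the log2 scale it was higher by 0.67 for actin, 0.35 for a second actin design and 0.38 for GAPDH. In 1 more pair, from ubiquitin, the ratio was lower in all double mutant arrays (-0.19), and the other 2 pairs overlapped. Their part in the results that follow was not tested.

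Among the 12 subunit genes, NRPB6A and NRPC2 rose in the double mutant, NRPE7 and NRPB7 fell, and the remaining 8 did not pass the test. The test was limma's moderated test on the log2 values of 22746 probe sets, with Benjamini-Hochberg adjustment over all of them and a threshold of 0.05. The 4 called genes are 33.3% of the 12, while 38.5% of all probe sets were called in the same comparison, 19.8% as higher and 18.7% as lower. The arrays of the genotypes did not overlap for 5 of the 12 genes, or 41.7%, against 49.7% of all probe sets. The number of changed subunit genes was thus near the background of the whole array, and the sizes were modest. The differences, double mutant minus wild type, ran from -0.68 to 0.66 on the log2 scale with a median of 0.10, where the median of all probe sets was -0.01. The median absolute difference was 0.21 for the 12 genes and also 0.21 for all probe sets. No value of any of the 12 genes lay below the lower quartile of its array, while NRPC1, NRPD7, NRPE7, NRPB9A and NRPB9B lay below the median on all 6 arrays. In whole rosettes, fewer cells of a type and less RNA per cell cannot be told apart.

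**Figure D1:**
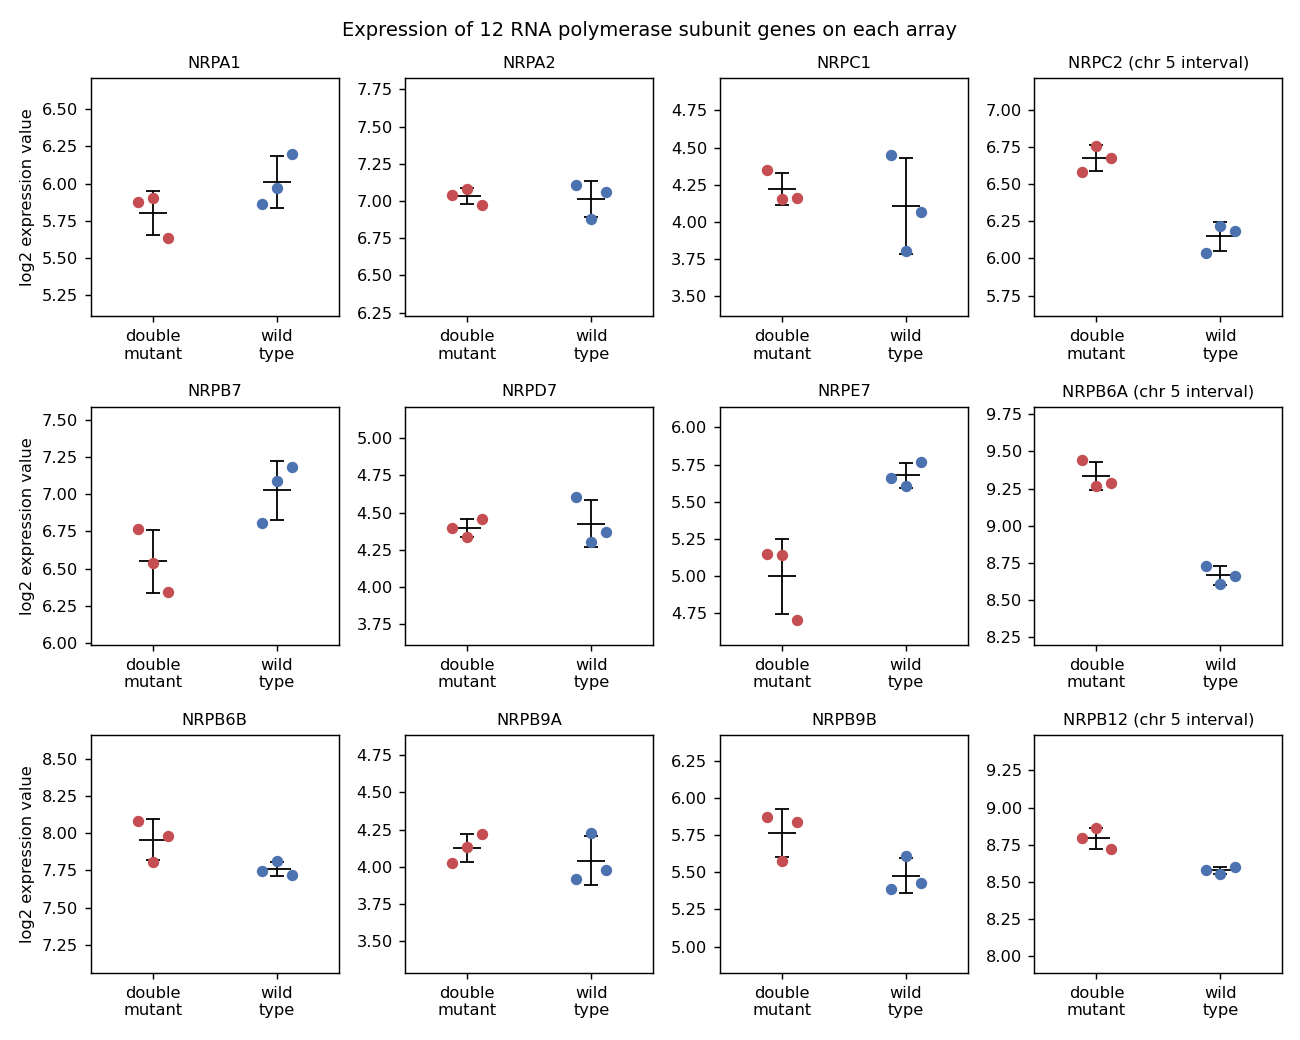
Log2 expression value of each of the 12 subunit genes on each array, double mutant left and wild type right in every panel; points are arrays, the horizontal mark is the mean and the bars are the SD of 3 arrays. Each panel spans the same height of log2 units but has its own position, and the groups stand clear of each other for NRPC2, NRPB7, NRPE7, NRPB6A and NRPB12.

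The catalytic subunits of RNA polymerases I and III were followed through 4 genes, of which 1 rose and 3 did not pass. NRPC2 (AT5G45140), the second-largest subunit of RNA polymerase III, read 6.58, 6.76 and 6.68 in the double mutant arrays, against 6.03, 6.22 and 6.19 in the wild-type arrays. All 3 double mutant values lay above all 3 wild-type values. The difference was 0.52 (SE 0.09), or 1.44-fold, with limma adjusted p = 0.00113. Permuting the 6 arrays exactly gave p = 0.1, and 3 arrays against 3 allow none smaller.

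Its partner in the active site did not show such a difference. NRPC1 (AT5G60040), the largest subunit of RNA polymerase III, read 4.35, 4.16 and 4.16 in the double mutant, against 4.45, 3.81 and 4.07 in the wild type. The wild-type values spread on both sides of the double mutant ones. The difference was 0.11, with a 95% interval from -0.21 to 0.44 (limma adjusted p = 0.58).

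For RNA polymerase I, neither catalytic subunit passed the test. NRPA1 (AT3G57660), the largest subunit, read 5.87, 5.90 and 5.63 in the double mutant and 5.86, 5.97 and 6.20 in the wild type, with a difference of -0.21 and a 95% interval from -0.46 to 0.05 (limma adjusted p = 0.19). The groups overlapped through the lowest wild-type array, and leaving out replicate 3 gave -0.11 when it was the wild-type array and -0.12 when it was the double mutant one. NRPA2 (AT1G29940), the second-largest subunit, read 7.04, 7.08 and 6.98 in the double mutant and 7.11, 6.88 and 7.06 in the wild type. Its difference of 0.02 had a 95% interval from -0.19 to 0.22 (limma adjusted p = 0.91), and its sign turned with other scalings of the arrays.

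The array's control probe sets for ribosomal RNA, the products of these enzymes, differed between the same arrays. The 25S ribosomal RNA control, a product of RNA polymerase I, read 12.19, 12.08 and 12.32 in the double mutant, against 5.45, 6.81 and 5.53 in the wild type. The 5S ribosomal RNA control, a product of RNA polymerase III, read 3.74, 3.47 and 3.22 in the double mutant, against 4.54, 4.05 and 4.304 in the wild type. On double mutant replicates 2 and 3 the 5S signal lay below the lower quartile of the array, at the dim end. Both pairs of groups were separate, in opposite directions (exact two-sided permutation p = 0.1 each, the smallest possible). On wild-type replicates 1 and 3 the 25S signal lay below the array medians of 5.81 and 5.85. Whether either control signal follows the amount of its ribosomal RNA was not tested. How these control values bear on the subunit genes, or on the activity of the polymerases, was not tested.

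The subunit numbered 7 sits in the stalk beside subunit 4; in yeast the pair contacts the emerging RNA. Separate genes encode it for RNA polymerases II, IV and V, and of these 3 genes 2 fell and 1 did not pass. NRPE7 (AT4G14660), the form of RNA polymerase V, read 5.15, 5.14 and 4.70 in the double mutant, against 5.66, 5.61 and 5.77 in the wild type. All double mutant values were below all wild-type values, and double mutant replicate 3 was the lowest of the 6. The gene fell by 0.68 on the log2 scale (SE 0.13), or 1.60-fold, with limma adjusted p = 0.00135 and an exact permutation p of 0.1.

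NRPB7 (AT5G59180), the RNA polymerase II form, read 6.76, 6.54 and 6.35 in the double mutant, against 6.80, 7.09 and 7.18 in the wild type. The groups did not overlap, but the highest double mutant value and the lowest wild-type value lay close together. The gene fell by 0.48 (SE 0.13), or 1.39-fold, with limma adjusted p = 0.0137 and an exact permutation p of 0.1. The call was lost without wild-type replicate 3 (-0.40, limma adjusted p = 0.053) and without double mutant replicate 3 (-0.38, adjusted p = 0.064); over all alternatives its adjusted p ran from 0.0047 to 0.064.

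NRPD7 (AT3G22900), the RNA polymerase IV form, read 4.39, 4.34 and 4.46 in the double mutant, against 4.60, 4.299 and 4.37 in the wild type. The groups overlapped throughout. The difference was -0.03, with a 95% interval from -0.25 to 0.20 (limma adjusted p = 0.86).

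The small subunits were followed through 5 genes. All 5 had a higher mean in the double mutant, but only NRPB6A passed the test and 4 did not. NRPB6A (AT5G51940) and NRPB6B (AT2G04630) encode alternative forms of subunit 6, which is found in all of these polymerases. NRPB6A read 9.44, 9.27 and 9.29 in the double mutant, against 8.73, 8.61 and 8.66 in the wild type. The gap between the groups was wider than the spread within either. The difference was 0.66 (SE 0.09), or 1.59-fold, with limma adjusted p = 0.000168 and an exact permutation p of 0.1. NRPB6B read 8.08, 7.81 and 7.98 in the double mutant and 7.74, 7.81 and 7.72 in the wild type. Its groups overlapped, and its difference of 0.20 had a 95% interval from -0.02 to 0.41 (limma adjusted p = 0.14).

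NRPB9A (AT3G16980) and NRPB9B (AT4G16265) are alternative forms of subunit 9, a zinc-binding subunit that in yeast affects the accuracy and speed of RNA polymerase II. NRPB9A read 4.03, 4.13 and 4.22 in the double mutant and 3.92, 4.23 and 3.98 in the wild type, with overlapping groups and a difference of 0.09 (95% interval -0.15 to 0.32, limma adjusted p = 0.57). NRPB9B read 5.87, 5.58 and 5.84 in the double mutant and 5.39, 5.61 and 5.43 in the wild type. Replicate 2 of each genotype made the groups overlap: its double mutant value was the lowest and its wild-type value the highest of the group. The difference of 0.29 (SE 0.11) did not pass (limma adjusted p = 0.059). It passed limma's test without wild-type replicate 2 (0.35, limma adjusted p = 0.029) and without double mutant replicate 2 (0.38, limma adjusted p = 0.031), within a range of 0.029 to 0.20 over all alternatives.

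NRPB12 (AT5G41010), a small zinc-binding subunit common to all of these polymerases, read 8.79, 8.86 and 8.72 in the double mutant, against 8.58, 8.56 and 8.60 in the wild type. The groups did not overlap, but the difference was small, 0.22 (SE 0.09, 95% interval 0.03 to 0.41), and did not pass (limma adjusted p = 0.071). It passed limma's test when only probe sets above the median level were tested (limma adjusted p = 0.043) and with an intensity trend in the variance prior (adjusted p = 0.041), within a range of 0.041 to 0.23 over all alternatives.

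**Figure D2:**
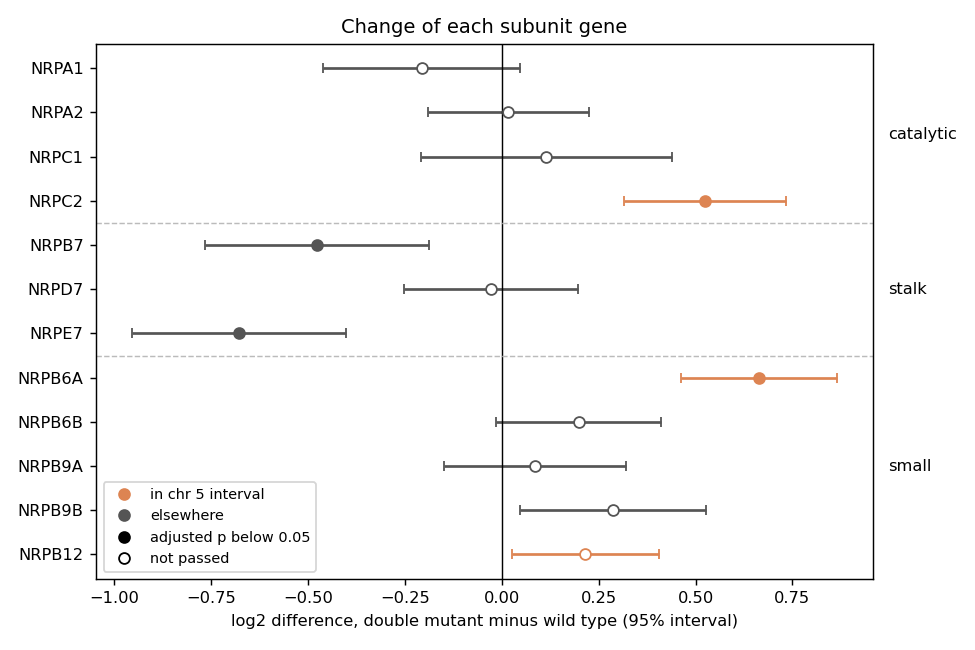
Log2 difference, double mutant minus wild type, of each subunit gene with its 95% interval from limma; filled points passed an adjusted p of 0.05, and orange marks genes between AT5G40450 and AT5G55000 on chromosome 5. NRPC2 and NRPB6A lie to the right of 0 and NRPB7 and NRPE7 to the left, and no gene reaches 1 in either direction.

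The subunit genes NRPB12, NRPC2 and NRPB6A lie between AT5G40450 and AT5G55000 on chromosome 5, an interval in which most expressed genes were higher in the double mutant. That interval was found on these same arrays, so the values are given as a description. Both subunit genes that rose lie in it, and with all arrays in the fit none of the 9 subunit genes elsewhere rose: 2 of those 9 fell and 7 did not pass. Of all probe sets 19.8% rose and 18.7% fell, and the counts among the 9 genes were not tested against these shares. The median difference was 0.52 for the 3 genes inside and 0.02 for the 9 outside. NRPB7 and NRPC1, which lie on chromosome 5 beyond the end of the interval, differed by -0.48 and 0.11.

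Set against the interval, these genes moved less than most. There were 389 other genes of the interval with a mean level above the array median of 5.88. Of these 87.4% rose, with a median difference of 0.85 and quartiles of 0.55 and 1.11. NRPB6A, at 0.66, lay above 32.6% of them. NRPC2, at 0.52, lay above 23.9%, and NRPB12, at 0.22, above 10.5%. Outside the interval, 5414 nuclear genes above the same level had a median difference of -0.04 with quartiles of -0.29 and 0.22, and 45.8% of them were called in either direction.

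The nearest neighbours showed the same for each gene. Around NRPB6A, the 10 nearest measured genes above the median level, 5 on each side, had a median difference of 1.07 and ranged from 0.14 to 1.81. Of these 9 rose, and 8 exceeded NRPB6A; the genes directly before and after it, AT5G51890 and AT5G51960, differed by 1.81 and 1.40. Around NRPC2 the median was 0.81, 9 of 10 neighbours rose and 8 exceeded it. Around NRPB12 the median was 0.87, 8 of 10 rose and 8 exceeded it, but the gene directly before it, AT5G40960, differed by 0.07 and the second gene after it, AT5G41060, by -0.07, and neither passed. NRPB12 thus stood among neighbours of mixed size.

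**Figure D3:**
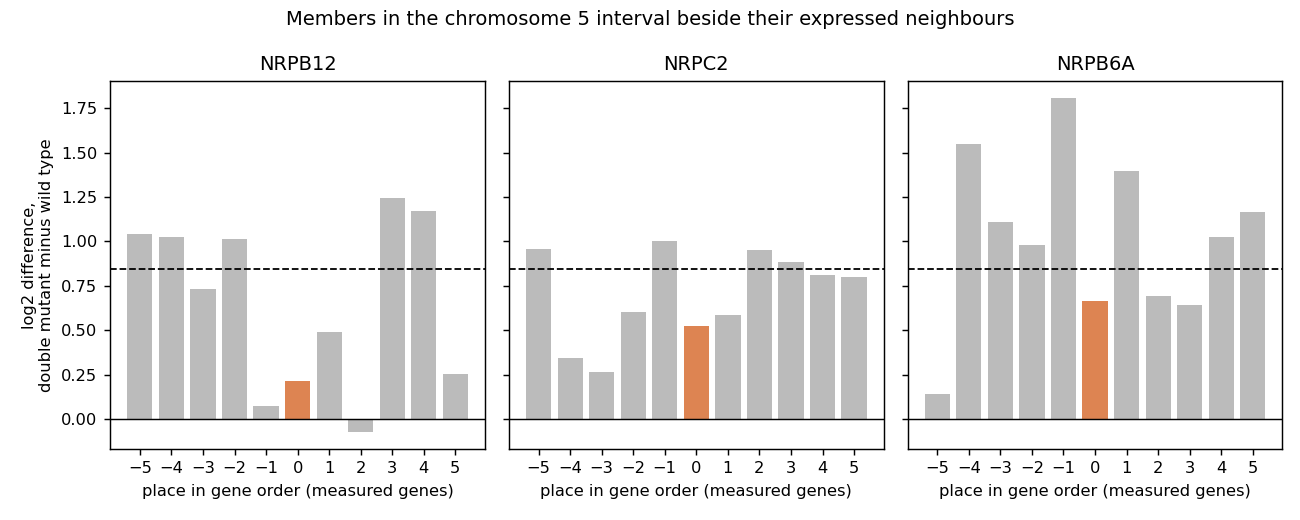
Log2 difference, double mutant minus wild type, of NRPB12, NRPC2 and NRPB6A (orange) and of the 5 nearest measured genes above the median level on each side (grey), in gene order; the dashed line is the median of 389 other expressed genes of the interval, 0.85. Each orange bar is lower than 8 of its 10 neighbours and lower than the dashed line.

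Genes for the same or a matching subunit were compared within arrays, which asks whether one changed more than the other. In 7 pairs the log2 difference between both genes was taken on each array and compared between genotypes with an exact two-sided permutation test; with 3 arrays against 3 its smallest p is 0.1, so no pair could pass, and the smallest value adjusted over the 7 pairs was 0.23. NRPB6A changed by 0.47 more than NRPB6B (SE 0.07), and the arrays of the genotypes did not overlap (exact p = 0.1). The second-largest subunits also parted: NRPC2 changed by 0.51 more than NRPA2 (SE 0.13, exact p = 0.1), without overlap. In both pairs the gene with the larger rise is the one in the chromosome 5 interval.

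With all arrays, the stalk genes gave the largest mean difference of the 7 pairs. NRPE7 minus NRPD7 differed by -0.65 between genotypes (SE 0.21, exact permutation p = 0.1), again without overlap. This rank rested on double mutant replicate 3. Without that array the difference was -0.47, against 0.50 for NRPB6A minus NRPB6B and 0.48 for NRPC2 minus NRPA2. NRPE7 minus NRPB7 differed by -0.20 (SE 0.13, exact p = 0.3) and NRPB7 minus NRPD7 by -0.45 (SE 0.24, exact p = 0.2), and in both the arrays overlapped. The remaining pairs overlapped too: NRPB9A minus NRPB9B differed by -0.20 (SE 0.12, exact p = 0.3) and NRPA1 minus NRPC1 by -0.32 (SE 0.26, exact p = 0.4). Adjusted over the 7 pairs, these p-values were 0.23 to 0.4. All 12 probe sets carry the plain suffix that the array uses for sets designed against a single gene; cross-hybridisation between the related genes was not tested.

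**Figure D4:**
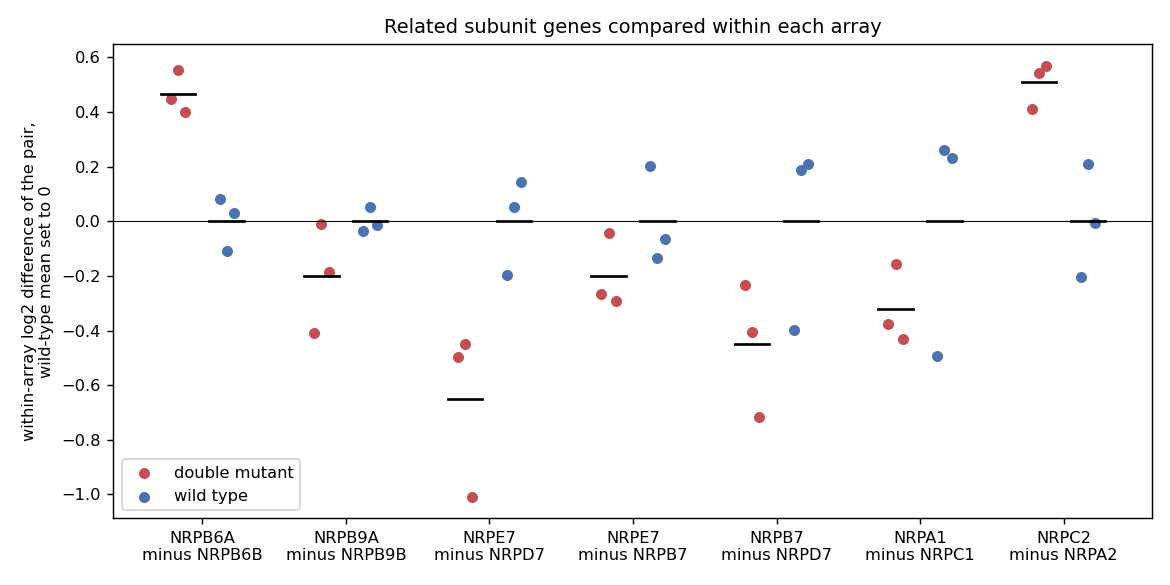
Within-array log2 difference between both genes of each of 7 pairs, double mutant left (red) and wild type right (blue), with the wild-type mean set to 0; points are arrays and black lines are means of 3 arrays. The groups are separate for NRPB6A minus NRPB6B, NRPE7 minus NRPD7 and NRPC2 minus NRPA2, and overlap for the other 4 pairs.

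Other genes of nuclear transcription were taken from lists by function. Of 109 listed genes 10 are named alone by a probe set in the array's annotation and could be followed. Their median difference was 0.02. Of these 10, 1 rose, 2 loci fell, and the test was not passed by 7, where 38.5% of all probe sets were called; the count of list genes called is no higher than that background. SPT4-1 (AT5G08565), one of 2 listed forms of a small elongation factor that binds RNA polymerase II together with SPT5, read 6.01, 5.90 and 6.03 in the double mutant, against 5.67, 5.59 and 5.68 in the wild type. Its groups did not overlap, and it rose by 0.34 (SE 0.09, limma adjusted p = 0.0099). The other measured elongation genes did not pass. SPT5-1 differed by -0.35 (limma adjusted p = 0.15), and by -0.097 without wild-type replicate 1. It lay below the lower quartile on 5 of the 6 arrays, all but wild-type replicate 1. IYO, which encodes MINIYO, an RNA polymerase II associated protein, differed by -0.17 (limma adjusted p = 0.32).

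Of the Mediator, the complex that links activators to RNA polymerase II, 4 listed genes were measured, of which 1 fell and 3 did not pass. The one that fell is AT1G23230, a locus without a gene name in the tables used here, with a difference of -0.53 (SE 0.13, limma adjusted p = 0.0065). MED6, MED18 and MED19A differed by 0.07, -0.02 and 0.20 (limma adjusted p = 0.77, 0.91 and 0.29). Without double mutant replicate 3, MED19A differed by 0.36 and passed (limma adjusted p = 0.043, within a range of 0.043 to 0.63 over all alternatives). MED9 and MED31, added later by their symbols, differed by 0.08 and 0.07 and did not pass either (adjusted p = 0.69 and 0.70).

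The list of factors of RNA polymerases I and III had 1 measured gene, AT5G13240, also without a gene name in these tables. It read 8.10, 8.15 and 8.08 in the double mutant, against 8.36, 8.66 and 8.41 in the wild type, and fell by 0.37 (SE 0.10, limma adjusted p = 0.0143); without double mutant replicate 3 the adjusted p was 0.052, the upper end of a range that began at 0.0061 over all alternatives. DME, a demethylase of DNA and the only measured gene of the DNA methylation maintenance list, differed by 0.14 (limma adjusted p = 0.29). AT5G15700, the only measured gene of the list of organellar polymerases, differed by 0.06 (adjusted p = 0.76). The 17 listed genes of RNA-directed DNA methylation and the 28 listed general transcription factors of RNA polymerase II were not analysed here. In the array's annotation, none of them has a probe set that names it alone.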

How the data were processed

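Deposited log2 expression values per probe set were used for 6 arrays, 3 per genotype, grouped by sample title. The submitters' processing notes name RMA, limma and R 2.9.0 for these deposited values. RMA, which subtracts background and normalizes between arrays, compresses changes of dim genes. The authors' deposited table holds a p-value, an adjusted p-value, a moderated t score and a log odds score beside each log2 difference; its log2 differences matched the group mean differences to within 6.7e-09, and it called the same number of subunit genes, 4. It entered no test.

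The 64 control probe sets were left out. The remaining 22746 were tested with limma 3.58.1 under R 4.3.3 (genotype as the only term, two-sided, Benjamini-Hochberg, threshold 0.05, total degrees of freedom 10.6). The procedure was also run on simulated data, and the outcome of that run is not reported here. The array annotation is dated; all 12 genes matched RefSeq's table, which gave gene order only, since no build is stated for the files. Genes named are all 12 subunit genes and, per list, up to 3 called genes with the smallest adjusted p, or else the one with the largest statistic; after seeing the values, the other measured list genes and the neighbours printed by locus were added. The genes, lists and the chromosome 5 interval were chosen with earlier results of these data known. Array medians ran from 5.87 to 5.90 in the double mutant and from 5.81 to 5.85 in the wild type, without overlap. No scan dates or detection calls were used, so no batch could be looked for; precision is limited by having 3 arrays a genotype. Tables and plots were made in Python 3.11.15 with pandas 2.3.3, scipy 1.17.1, matplotlib 3.10.9 and numpy 2.4.6. Alternatives are given in the closing section.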

Additional observations from a re-analysis of the deposited data

Results flagged for a closer look

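The 25S ribosomal RNA control was left out of the tests with the other control probe sets. It read 6.26 higher on the log2 scale in the double mutant (12.20 ± 0.12) than in the wild type (5.93 ± 0.76; SD, n = 3). It was picked out because its signal lies outside the main measurement and above the level in the wild-type arrays. Whether this signal follows the amount of 25S ribosomal RNA was not tested, nor was its part in the values of the subunit genes.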

How the results depend on the processing

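NRPC2, NRPE7 and NRPB6A kept their direction and their call in every alternative that tested them; the filter on low signal removed NRPE7. With that filter 1 subunit gene fell, 3 rose and 0 list genes rose. The filter also removed SPT4-1, the list gene that rose. SPT4-1 kept its call in every alternative that tested it (limma adjusted p = 0.018 to 0.042). NRPB12 passed, at 0.22, with the filter and with the trend prior. NRPA2, never called, turned to -0.0043 after a second quantile normalization, -0.031 with median centring and -0.021 with upper quartile centring. Leaving out 1 array at a time gave -0.59 to -0.38 for NRPB7, 0.23 to 0.38 for NRPB9B, -0.052 to 0.062 for NRPA2, -0.037 to 0.29 for NRPC1, -0.28 to -0.11 for NRPA1, 0.023 to 0.18 for NRPB9A, 0.13 to 0.27 for NRPB6B and -0.090 to 0.062 for NRPD7. It left 2 to 3 subunit genes that rose, and 1 to 2 that fell. The count of 3 came without replicate 2 of either genotype and included NRPB9B, which lies outside the chromosome 5 interval. Leaving out 1 array left 1 to 2 list genes that rose and 1 to 2 that fell. Among list genes it gave -0.13 to 0.063 for MED18, -0.15 to 0.24 for MED6, 0.12 to 0.36 for MED19A, -0.49 to -0.097 for SPT5-1, -0.24 to -0.051 for IYO, 0.081 to 0.23 for DME, -0.068 to 0.16 for AT5G15700, -0.096 to 0.19 for MED9 and -0.0057 to 0.18 for MED31. The cause of these shifts was not tested. Median centring moved the median of all probe sets to -0.06. With it NRPB12 differed by 0.17 and NRPB9B by 0.24, and neither passed (limma adjusted p = 0.16 and 0.10). The replicate block changed no call of a subunit or list gene (NRPB6A: limma adjusted p = 0.00049) and left 4201 probe sets higher and 3894 lower; the numbers share no label that pairs them, the deviations of same-numbered arrays correlated at -0.16 to -0.08, and 0 of 6 arrays correlated best with their own number. Another probe set per gene, or their average, was not run, as each subunit gene has 1.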
